A study of Mus musculus with 10 samples.

Results

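AMPA receptor subunits and their transmembrane regulatory proteins (TARPs) were examined in the hippocampus of female tauopathy mice given an androgen. The 10 genes are the 4 subunits Gria1, Gria2, Gria3 and Gria4, the 4 type I TARPs Cacng2, Cacng3, Cacng4 and Cacng8, and the 2 type II TARPs Cacng5 and Cacng7. They were taken by gene identifier from the 56884 genes of the count table, and all 10 had enough counts to be tested (352 to 61240 counts per library). All mice were ovary-intact female P301S (PS19) mice, which carry human mutant Tau driven by the promoter of the mouse prion gene Prnp. At 6 months of age, 5 mice received a subcutaneous SILASTIC implant with 10 mm of dihydrotestosterone (DHT) powder, an androgen that aromatase cannot turn into estrogen, and 5 received a void implant. After 12 weeks, at 9 to 9.5 months, 1 hippocampal mRNA library was made per mouse. Mice without the Tau transgene were not analysed here, so the comparison is between DHT and void within the transgenic line.

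AMPA receptors are tetramers that carry most fast excitatory transmission in the brain, and the subunits they are built from set their conductance and calcium permeability. TARPs bind the receptor as auxiliary subunits, help bring it to the surface, anchor it at the synapse and slow its closing. Type I TARPs end in a motif that binds postsynaptic scaffold proteins, while type II TARPs end differently and have their own effects on channel gating.

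Short stretches of the reference mRNAs show how the members differ. In the subunits, the pore loop holds the codon that the editing enzyme encoded by Adarb1 changes in Gria2 mRNA, which makes receptors with the edited subunit nearly impermeable to calcium. That codon is in capitals in the following coding stretches, counted from the first codon of the reading frame as codon 600 in Gria1, 607 in Gria2, 612 in Gria3 and 608 in Gria4 (GENCODE M21, GRCm38).
Gria1: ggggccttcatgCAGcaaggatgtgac
Gria2: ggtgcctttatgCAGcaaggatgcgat
Gria3: ggtgcttttatgCAGcaaggatgtgat
Gria4: ggtgcctttatgCAAcaaggatgtgac
The unedited codon is the same in Gria1, Gria2 and Gria3 and differs by 1 base in Gria4. Counts per gene do not show editing or splice forms, so neither was measured.

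In the TARPs, the end of the reading frame separates the types. The last 4 codons before the stop codon are in capitals, since in type I TARPs they encode the scaffold-binding motif.
Cacng2: gccaaccgccggACCACGCCCGTAtga
Cacng3: gccaacagacgtACCACGCCTGTCtga
Cacng4: ctgaaccggcggACGACTCCCGTGtga
Cacng8: ctcaacaggaaaACCACGCCCGTGtag
Cacng5: gaccagatgtcaTCATCTCCCTGCtga
Cacng7: ctccacatctccACTTCGCCGTGCtga
Among type I TARPs the capital bases differed at 1 to 4 positions per pair. Cacng5 and Cacng7 differed from each other at 4 of them and from type I TARPs at 5 to 7. Over the whole coding sequence, identity was 69.4 to 72.0% between subunits, 62.6 to 72.4% between type I TARPs, 71.9% between Cacng5 and Cacng7, and 58.9 to 62.9% across the TARP types. The longest run of identical bases between transcripts of any pair was 59, in Gria3 and Gria4.

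Total counts per library ranged from 27188854 to 47113661 (median 32844884) with void and from 33523527 to 45947784 (median 36379142) with DHT. The numbers after S in the library labels were 4 to 11 for void and 18 to 23 for DHT mice. The labels do not say what these numbers stand for. Effects of anything that follows them cannot be told apart from those of treatment. Among marker lists, all 12 neuron markers had negative log2 fold changes, none of which passed the test, and their summed level was 8289 to 9119 CPM (counts scaled to a common library size with TMM factors) with void and 7248 to 8312 with DHT. Of 12 choroid plexus markers, all were higher in the mean with DHT and 4 passed the test (Kl, Clic6, Otx2 and Enpp2), with sums of 360.2 to 3273 CPM with void and 3911 to 5744 with DHT. Of 10 microglia markers, all were higher in the mean with DHT and 7 passed the test, with sums of 464 to 559 CPM with void and 682 to 1059 with DHT. No marker on any of these lists was at 0 in any mouse. In whole hippocampus, fewer cells of a type and less RNA per cell cannot be told apart.

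With DHT, 0 of the 10 genes passed the test (edgeR quasi-likelihood test, Benjamini-Hochberg adjusted p under 0.05 over 17622 genes), against 5.48% of all genes tested, of which 5.22% were higher and 0.261% lower. At an unadjusted p under 0.05, 4 of the 10 were lower and none higher, beside 4.22% and 13.1% of all genes. The 4 were Gria2, Gria3, Gria4 and Cacng2. No member reached a log2 fold change beyond 1, while 2.19% of all genes passed both that limit and the adjusted p. In DESeq2, 2 of the 10 passed, Gria3 (adjusted p = 0.0353) and Cacng2 (adjusted p = 0.0298), both lower. Of all 17622 genes, DESeq2 called 266 lower and 1186 higher, so its background differs from that of edgeR. Negative log2 fold changes were found for 7 of the 10 genes and for 47.6% of all genes. No gene of the 10 had groups that did not overlap, which 0.880% of all genes did with DHT below void and 5.39% with DHT above. The 10 genes were measured in the same mice and are not independent of each other.

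**Figure D1:**
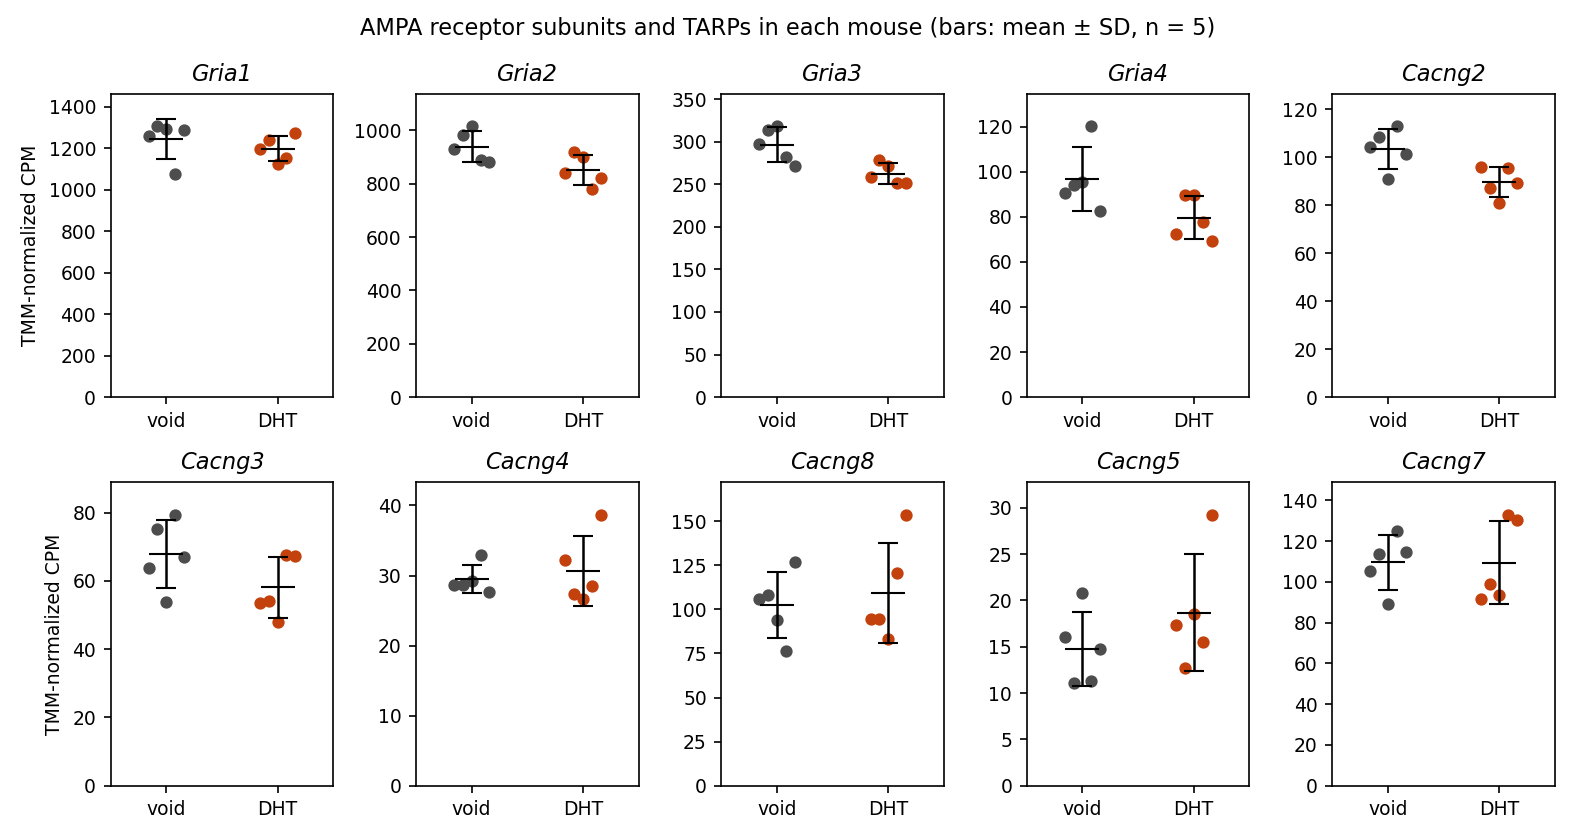
TMM-normalized CPM (vertical axes, each from 0) of the 10 genes in void (grey) and DHT (orange) mice, 1 point per mouse, with mean ± SD of 5 mice. In Gria2, Gria3 and Cacng2 the DHT points sit low but still overlap the void points, while in Cacng8 and Cacng5 the highest point is a DHT mouse.

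Gria1, the subunit most prominent in hippocampal pyramidal cells and much studied in synaptic potentiation, was at 1258, 1307, 1295, 1074 and 1289 CPM in void mice 10, 11, 4, 5 and 9, the order used for void mice throughout. In DHT mice 1, 2, 3, 5 and 6, the order used for DHT mice, it was at 1199, 1238, 1125, 1155 and 1273 CPM. Void mouse 5 was the lowest of all 10, and the other 4 void mice were each above at least 4 of the DHT mice. The means were 1245 ± 97.0 CPM with void and 1198 ± 59.9 with DHT (± SD of 5 mice), or -0.05 as a log2 fold change (standard error, SE, 0.07, adjusted p = 0.752, edgeR quasi-likelihood test). Its 95% interval ran from -12.8% to 6.24% change. Without void mouse 5 the log2 fold change was -0.10.

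Gria2, the edited subunit that limits calcium entry, was at 931, 981, 1016, 888 and 880.4 CPM in void mice. In DHT mice it was at 840.4, 918, 901, 779 and 819.7 CPM. The 3 lowest values were all from DHT mice and the 3 highest from void mice, with an overlap between them. The means were 939 ± 58.7 with void and 852 ± 57.6 CPM with DHT (± SD of 5 mice), a difference that did not pass the test over all genes. Its log2 fold change was -0.14 (SE 0.06), with an adjusted p of 0.278 from edgeR and an unadjusted p of 0.0468. The two-sided exact permutation test over the 10 mice gave p = 0.0635 for Gria2 alone.

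Gria3, an X-linked subunit that assembles with Gria2, was at 297, 314, 318, 282 and 271 CPM in void mice. In DHT mice it was at 259, 279, 271, 251 and 251 CPM. Of the DHT mice, 3 were below every void mouse, and mice 2 and 3 were within the void range. The means were 297 ± 20.2 and 262 ± 12.3 CPM (± SD of 5 mice), or -0.18 as a log2 fold change (SE 0.06, adjusted p = 0.115, edgeR). Taken alone, Gria3 had p = 0.0238 in the two-sided exact permutation test, whose smallest possible p with 5 mice against 5 is 0.00794.

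Gria4, the subunit with the fastest kinetics, found in many interneurons, was at 90.5, 94.2, 95.5, 120.2 and 82.3 CPM in void mice. In DHT mice it was at 72.4, 89.5, 89.8, 77.5 and 69.2 CPM. Void mouse 5, the lowest for Gria1, was the highest for Gria4, and 3 DHT mice were below every void mouse. The means were 96.6 ± 14.2 and 79.7 ± 9.59 CPM (± SD of 5 mice), with the most negative log2 fold change of the 10 genes, -0.28 (SE 0.11, adjusted p = 0.185, edgeR). Without void mouse 5 it was -0.19. The two-sided exact permutation test gave p = 0.0476 for Gria4 alone.

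Cacng2 encodes stargazin, the type I TARP whose loss in the stargazer mouse keeps AMPA receptors from cerebellar synapses. It was at 104, 108, 90.7, 113 and 101 CPM in void mice and at 95.7, 87.0, 80.8, 95.3 and 89.1 CPM in DHT mice. Void mouse 4 was the only void mouse within the DHT range, and the other 4 were above every DHT mouse. The means were 104 ± 8.39 and 89.6 ± 6.19 CPM (± SD of 5 mice), or -0.21 as a log2 fold change (SE 0.07, adjusted p = 0.117, edgeR). For Cacng2 alone the two-sided exact permutation test gave p = 0.0238. An antisense transcript, A730060N03Rik, overlaps Cacng2 exons and was at 1.47 to 7.59 CPM, and reads of the pair can be told apart only if the counting used strand, which the sources used here do not state.

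Cacng3, the type I TARP best known from cerebral cortex, was at 63.8, 75.3, 53.8, 79.4 and 66.9 CPM in void mice. In DHT mice it was at 53.6, 54.0, 47.8, 67.7 and 67.4 CPM. DHT mice 5 and 6 were in the middle of the void range, and the other 3 were near or below the lowest void value. The means were 67.9 ± 10.0 and 58.1 ± 8.95 CPM (± SD of 5 mice), or -0.22 as a log2 fold change (SE 0.12, adjusted p = 0.389, edgeR), with a 95% interval of the percent change from -28.7% to 2.72%.

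Cacng4, the type I TARP noted for its expression in the developing brain and in glia, was at 28.7, 28.7, 29.3, 32.9 and 27.7 CPM in void mice. In DHT mice it was at 32.2, 27.3, 26.6, 28.6 and 38.7 CPM. Mouse 6 was the highest, and the other DHT mice were spread across the void range and just below it. The means were 29.4 ± 2.0 and 30.7 ± 4.97 CPM (± SD of 5 mice). Without DHT mouse 6 the log2 fold change turned from 0.06 (SE 0.10, adjusted p = 0.853, edgeR) to -0.04. The interval ran from -10.6% to 21.3% change.

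Cacng8, the TARP most typical of the hippocampus, was at 106, 108, 94.1, 76.2 and 127 CPM in void mice. In DHT mice it was at 94.5, 94.7, 83.2, 120.4 and 154 CPM. It was the lowest in void mouse 5 and the highest in DHT mouse 6, and the groups spread across each other. The means were 102 ± 18.7 and 109 ± 28.4 CPM (± SD of 5 mice), or 0.10 as a log2 fold change (SE 0.17, adjusted p = 0.855, edgeR). The interval ran from -17.2% to 37.9% change. Without DHT mouse 6 the log2 fold change was -0.06.

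Of the type II TARPs, Cacng5, best known from Bergmann glia, had the lowest counts of the 10 genes. It was at 16.01, 11.1, 20.8, 11.2 and 14.8 CPM in void mice and at 17.4, 12.7, 18.6, 15.5 and 29.3 CPM in DHT mice. DHT mouse 6 stood above all others, and the remaining 4 were within the void range. The means were 14.8 ± 4.0 and 18.7 ± 6.33 CPM (± SD of 5 mice). Its log2 fold change of 0.33 (SE 0.23, adjusted p = 0.524, edgeR), the highest of the 10, was 0.11 without DHT mouse 6, and its interval ran from -10.5% to 76.9% change.

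Cacng7, a type II TARP of cerebellum and forebrain, was at 105, 114, 88.9, 125 and 115 CPM in void mice and at 91.8, 98.8, 93.5, 133 and 130.2 CPM in DHT mice. DHT mice 5 and 6 were above every void mouse, and the other 3 were in the lower part of the void range. The means were 110 ± 13.5 and 109 ± 20.4 CPM (± SD of 5 mice), with a 95% interval of the percent change from -17.2% to 20.5% (adjusted p = 0.997, edgeR quasi-likelihood test).

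**Figure D2:**
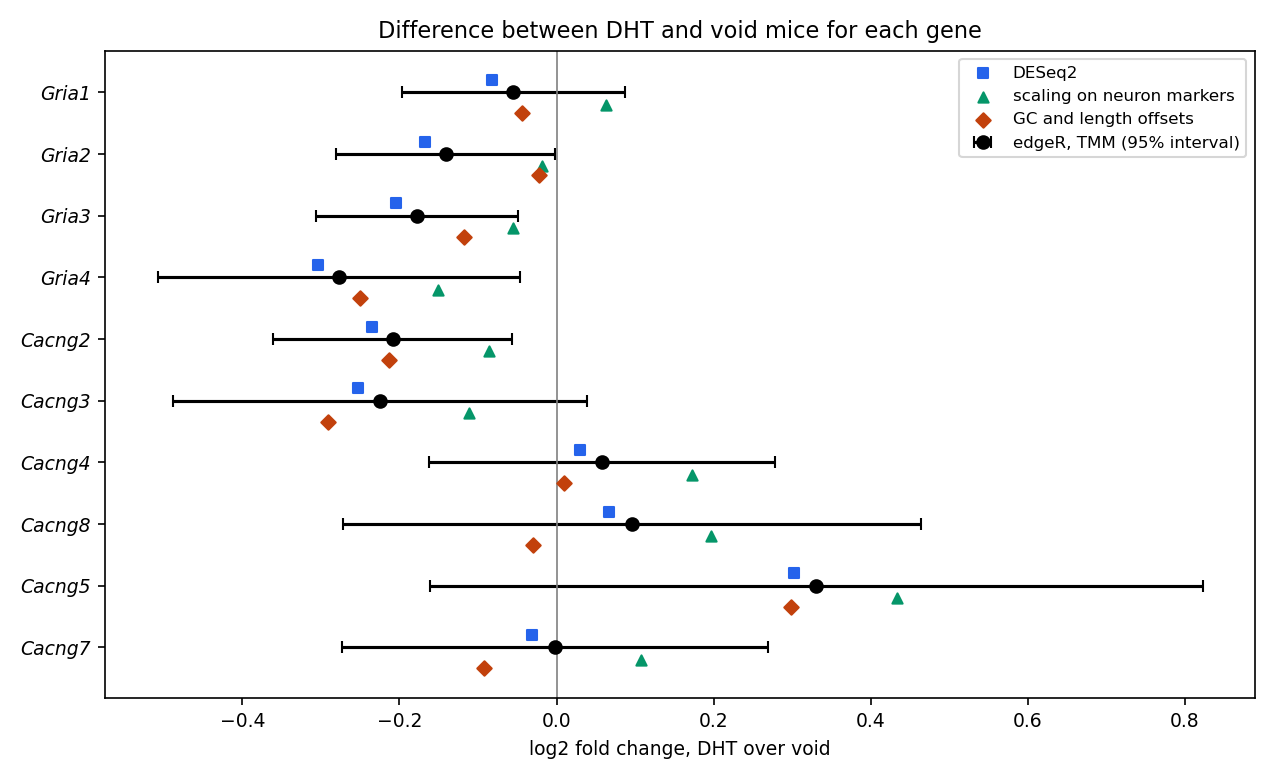
Log2 fold change of DHT over void (horizontal axis) for the 10 genes by edgeR with TMM (black, 95% interval), DESeq2 (blue), edgeR scaled on neuron markers (green) and edgeR with offsets for GC content and length (orange). The intervals of Gria2, Gria3, Gria4 and Cacng2 lie below 0, and all their green and orange points are closer to 0 than the black ones except the orange point of Cacng2.

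Other scales and covariates moved these values. When libraries were scaled on the 12 neuron markers, the median over all genes (log2 fold change) moved from 0.01 to 0.13, and the 10 genes shifted upward with it. On that scale Gria1 was at 0.06, Gria2 at -0.02, Gria3 at -0.06, Gria4 at -0.15 and Cacng2 at -0.09, and none of the 10 genes had an unadjusted p under 0.05. This shift is common to all genes and restates the lower neuron markers with DHT, so the turn of Gria1, close to 0 on either scale, is no separate result. With a choroid plexus score (mean log2 CPM of the 12 markers) as covariate, 0 genes of the whole table passed the edgeR test and 0 of the 10 had an unadjusted p under 0.05. Gria2 was at -0.13, Gria3 at -0.13, Gria4 at -0.03 and Cacng2 at -0.08. The score itself did not overlap between the groups, at 2.21 to 6.23 with void and 6.56 to 7.30 with DHT. Covariate and treatment thus cannot be told apart, and standard errors grew, for Cacng2 from 0.07 to 0.11. Loss of calls in this fit therefore assigns no cause. Gria2, Gria3, Gria4 and Cacng2 had negative log2 fold changes in each of 19 settings, the main one included.

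Levels of different genes were compared as CPM per kilobase of the longest coding transcript in GENCODE M21. Over all 10 mice Gria1 was at 194 to 236, Gria2 at 75.1 to 98.0, Gria3 at 48.4 to 61.3 and Gria4 at 12.7 to 22.1 CPM per kilobase. The ranges of neighbours in that order did not overlap, and the order was the same per coding length and without division by length. Of the summed subunits per kilobase, Gria1 made up 57.5% ± 2.16 with void and 59.5% ± 2.06 with DHT (± SD of 5 mice). The share of Gria2 was 23.2% ± 0.793 and 22.6% ± 1.15, that of Gria3 14.7% ± 0.651 and 13.9% ± 0.528, and that of Gria4 4.59% ± 0.920 and 4.03% ± 0.468. All 4 shares overlapped between the groups. Per coding length Gria1 took 47.7% and Gria2 37.0% in void mice.

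Among TARPs, Cacng8 was at 40.2 to 81.1 and Cacng7 at 40.2 to 60.2 CPM per kilobase, and these neighbours overlapped. They were followed by Cacng3 (17.2 to 28.6), Cacng2 (14.7 to 20.5), Cacng4 (7.61 to 11.1) and Cacng5 (3.0 to 7.90). Cacng3 overlapped Cacng2, and Cacng4 overlapped Cacng5, whereas Cacng7 did not overlap Cacng3, nor Cacng2 Cacng4. The longest coding transcript has 1897 bases in Cacng8 and 5510 in Cacng2, and the order was not the same on another length. Per coding length the means followed the order Cacng7, Cacng2, Cacng8, Cacng3, Cacng4 and Cacng5 in void mice.

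The share of Cacng3 among TARPs was 14.6, 16.3, 13.9, 18.1 and 13.9% in void mice and 13.6, 13.8, 13.2, 13.7 and 12.2% in DHT mice. Every DHT mouse was below every void mouse by this measure, but the groups overlapped per coding length and without division by length. The summed subunits were at 390.5, 408, 410.3, 356 and 385 CPM per kilobase in void mice and 360.3, 382, 358, 346 and 370 in DHT mice, with 389.8 ± 22.03 and 363 ± 13.4 as means (± SD of 5 mice). The sum of TARPs was 159 ± 12.6 and 158 ± 29.1, and the ratio of TARPs to subunits was 0.410 ± 0.0440 with void and 0.436 ± 0.0837 with DHT. That ratio was highest in DHT mice 5 and 6, at 0.513 and 0.539, and at or below 0.451 in all other mice. Per coding length the same mice were at 0.562 and 0.575, but void mouse 5 was at 0.521. The trend of the libraries with GC content, given below, was not removed from these sums and ratios, and its part in them was not tested.

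**Figure D3:**
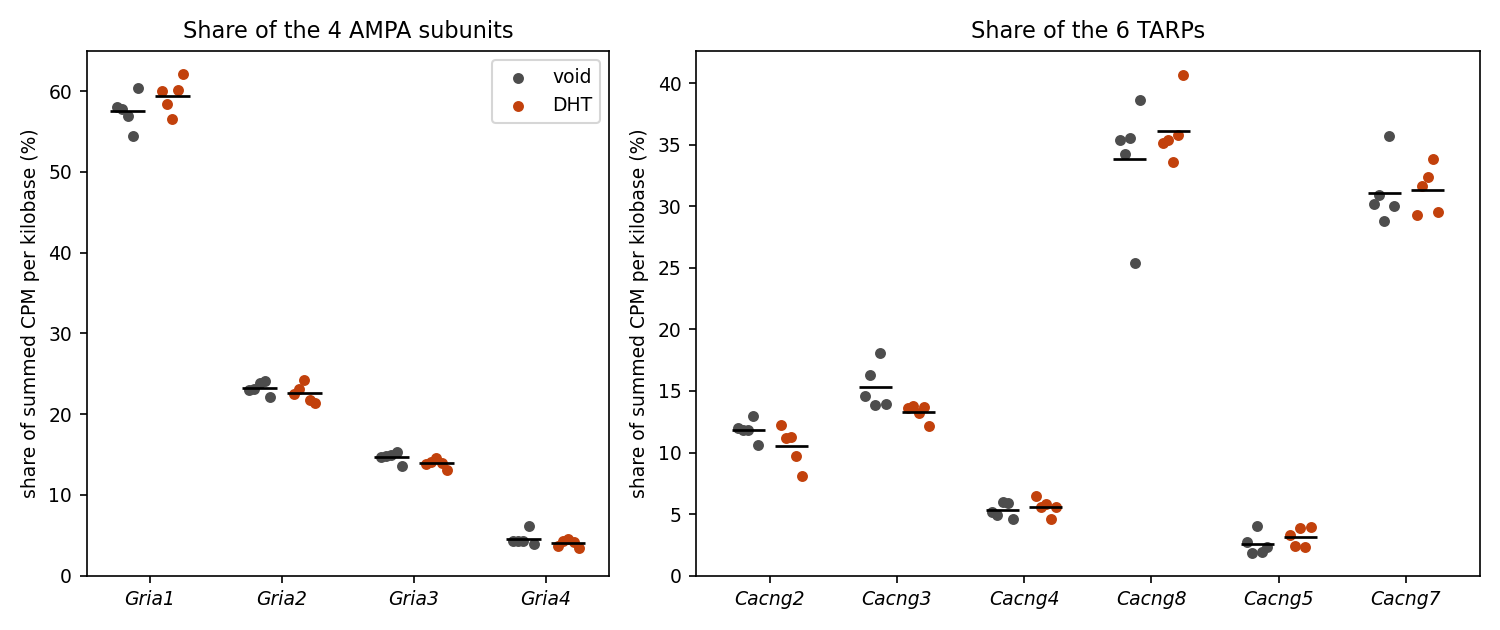
Share of each gene (vertical axis, percent of summed CPM per kilobase of longest coding transcript) among the 4 AMPA subunits and among the 6 TARPs, 1 point per mouse, lines at the mean of 5 mice. Gria1 holds at least 54.4% in every mouse, and Cacng3 is the only gene whose DHT points all lie below the void points.

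Differences between mice of the same group varied with the base composition of the transcripts. For each library, the slope of log2 CPM deviations on GC content was taken over 10161 genes. It lay between -0.138 and 0.143 log2 CPM per 10 GC points in void mice and between -0.152 and 0.29 in DHT mice, with DHT mice 5 and 6 and void mouse 9 at the top. The longest Gria2 transcript has 36.8% GC, and its deviations from the group means correlated with this slope at r = -0.72 over 10 mice. The correlation was 0.91 for Cacng8 with 65% GC and 0.76 for Cacng7 with 58.1%. Gria3 (39.8% GC) and Gria4 (44.3%) were at -0.69 and -0.68, Cacng3 (54.6%) at 0.60, and Gria1, Cacng2, Cacng4 and Cacng5 between 0.27 and 0.45. All points share their libraries and the genes were part of the slope, so these values are descriptions.

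**Figure D4:**
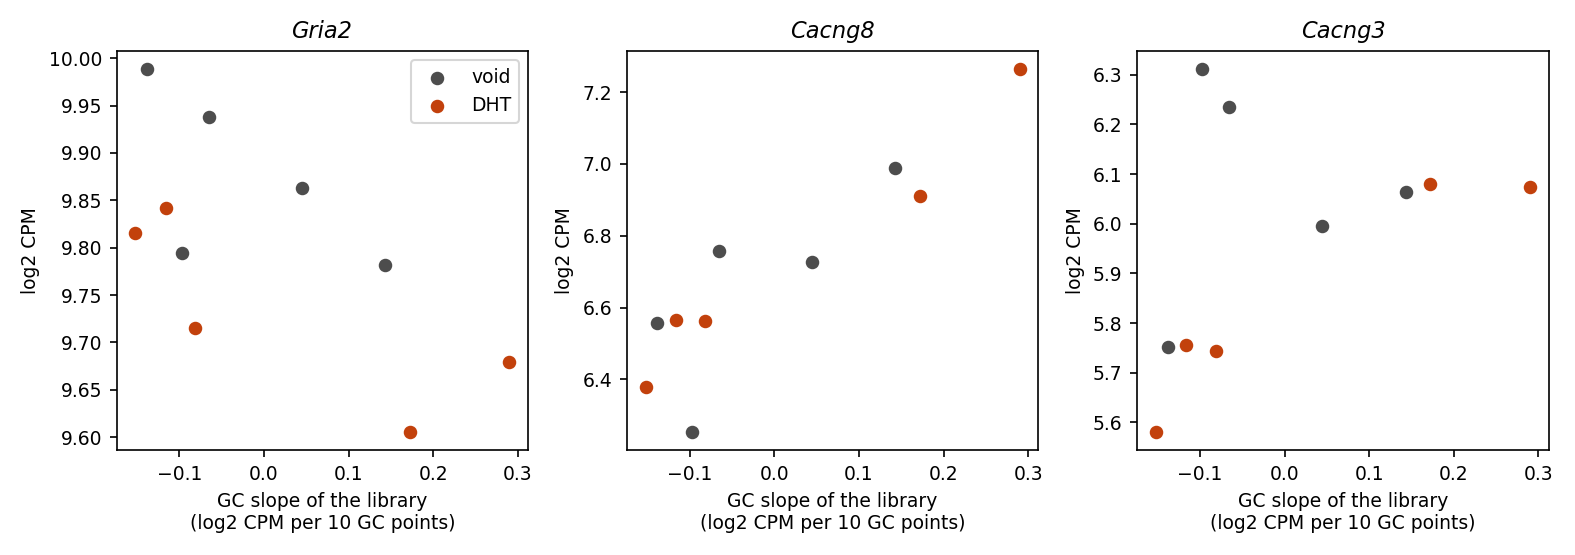
Log2 CPM (vertical axis) of Gria2, Cacng8 and Cacng3 against the GC slope of each library (horizontal axis, log2 CPM per 10 GC points), 1 point per mouse, void grey and DHT orange. Gria2 is low and Cacng8 high in the libraries with the steepest positive slopes.

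With offsets for the GC and length trend of each library, an alternative chosen after seeing the data, the log2 fold change of Gria2 was -0.02 (adjusted p = 0.845, edgeR) and that of Gria3 -0.12 (adjusted p = 0.187). Those of Gria4 and Cacng2 moved little, to -0.25 (adjusted p = 0.110) and -0.21 (adjusted p = 0.0835). Cacng3 was at -0.29 (adjusted p = 0.0905) and Cacng8 at -0.03. The within-group SD of log2 CPM of Cacng8 went from 0.32 to 0.15, that of Cacng7 from 0.23 to 0.14 and that of Gria2 from 0.09 to 0.08. The offsets were fitted to deviations from the mean of all libraries, so they also remove any treatment difference that follows GC content or length. What sets these slopes was not tested.

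Deviations from the group means showed which genes varied together among mice (Pearson r over 10 mice, which share libraries and depth). Gria2 and Gria3 had r = 0.94, and 0.80 after the GC and length trend was removed. Cacng3 and Cacng7 had 0.94 and 0.93, and Cacng2 and Cacng3 had 0.79 in both. These pairs thus varied together with and without the trend. Gria1 and Cacng8 had 0.67 and 0.87, while Gria4 ran opposite to both, with -0.73 and -0.79 against Gria1 and -0.83 and -0.74 against Cacng8. Void mouse 5 had the lowest Gria1 and Cacng8 and the highest Gria4 of all mice. The part of this mouse in the correlations of these genes was not tested. Other pairs changed once the trend was removed, since Gria2 with Cacng7 went from -0.77 to -0.0028 and Gria2 with Cacng3 from -0.70 to 0.10. Of 45 pairs, 7 were above 0.5 and 9 below -0.5 as measured, and 7 and 8 afterwards.

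**Figure D5:**
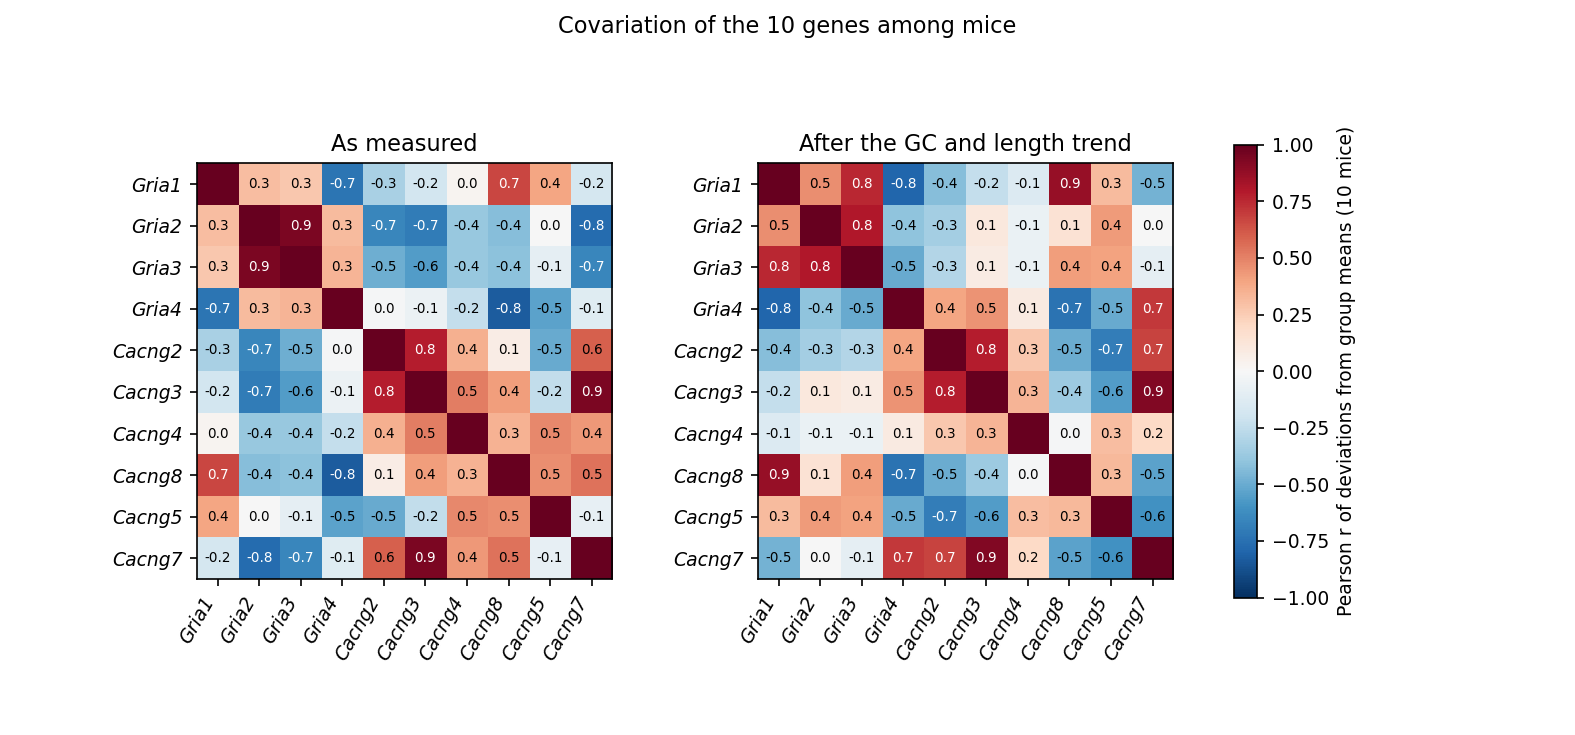
Pearson r (color, -1 to 1) between the 10 genes of deviations from group means in 10 mice, as measured (left) and after removal of the GC and length trend (right). The pairs Gria2 with Gria3 and Cacng3 with Cacng7 are high in both panels, and the negative block of Gria2 and Gria3 with Cacng3 and Cacng7 is seen at the left only.

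Against the mean of each marker list (10 mice, the same libraries), Gria4 had r = -0.92 with oligodendrocyte precursor markers and -0.82 with CA2 and CA3 markers. Cacng8 had 0.88 with the former and 0.87 with CA1 markers, and Cacng7 had 0.89 with neuron markers. These values were picked as among the largest over all pairs of gene and list. With neuron markers, Gria2 was at -0.57, Gria3 at -0.47 and Gria4 at -0.20, while Gria1 and the TARPs were between 0.05 and 0.89. The GC and length trend was not removed here. With the GC slope of the libraries, Gria4, Cacng8 and Cacng7 had r = -0.68, 0.91 and 0.76. No gene of the oligodendrocyte precursor (8), oligodendrocyte (8), dentate granule cell (7), inhibitory neuron (10) or striatum and thalamus (10) lists passed the test. Map3k15 of 7 CA2 and CA3 markers and Gfap of 8 astrocyte markers were higher with DHT. Summed levels overlapped between the groups, at 246.5 to 288 CPM with void and 258 to 316 with DHT for oligodendrocyte precursors. They were at 529 to 622 CPM with void and 467 to 648 with DHT for CA1, 111 to 162 and 129.8 to 175 for CA2 and CA3, and 391.6 to 621 and 392 to 595 for dentate granule cells. The parts of regional sampling and of the GC trend in the levels of Gria4 and Cacng8, and in these correlations, were not tested.

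Among 10179 genes with at least 10 CPM, the gene whose deviations were closest was named for each member. It was Cbfa2t2 for Gria1 (r = 0.98), Rbm27 for Gria2 (0.98), Xk for Gria3 (0.96) and Tmem56 for Gria4 (0.99). For the TARPs it was Hdgf for Cacng2 (0.95), Fxyd7 for Cacng3 (0.96), Egln1 for Cacng4 (0.91), Fmnl1 for Cacng8 (0.99), Glt1d1 for Cacng5 (0.90) and Mapk3 for Cacng7 (0.98). Cacng8 had 657 genes above r = 0.9, and Cacng4 and Cacng5 had 2 each. Each named r is the highest of 10179 over few mice, so high values can arise among unrelated genes. The GC and length trend was not removed, and the named genes are descriptions only.

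By family, the median log2 fold change was -0.16 over the 4 subunits, -0.08 over the 4 type I TARPs and 0.16 over the 2 type II TARPs, beside 0.01 over all genes tested. The calcium channel gamma subunits outside the TARPs, Cacng1 and Cacng6, are next to TARP genes on the genome (Cacng1 beside Cacng4 and Cacng5 on chromosome 11, Cacng6 beside Cacng7 and Cacng8 on chromosome 7). Cacng1 was near 0 and not tested, and Cacng6 had a log2 fold change of 0.41 (adjusted p = 0.666, edgeR).

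Of 15 other auxiliary and assembly proteins of AMPA receptors, 2 fell with DHT and none rose, with a list median of -0.02 and 8 of 15 negative. Shisa9, an auxiliary subunit that modulates short-term plasticity, had a range of 70.1 to 85.2 CPM (median 73.8) with void and 55.3 to 68.5 (median 63.3) with DHT, without overlap. The log2 fold change came to -0.29 (SE 0.07, adjusted p = 0.0428, edgeR quasi-likelihood test). Gsg1l, an auxiliary subunit that reduces receptor currents, averaged 36.9 ± 8.77 CPM in void and 24.6 ± 3.57 CPM in DHT mice (± SD of 5 mice), or -0.59 as a log2 fold change (SE 0.15, adjusted p = 0.0458). In edgeR both were close to the threshold: none of the 15 passed when any 1 of void mice 10, 11 and 5 or DHT mice 1, 3 and 6 was left out. In DESeq2, which called more genes of the whole table, both passed as lower (adjusted p = 0.00337 for Shisa9 and 0.00289 for Gsg1l).

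Of 30 scaffolding, anchoring and trafficking genes, 1 fell and 25 had negative log2 fold changes, with a median of -0.09. Akap5, the anchoring protein that holds kinases and calcineurin near AMPA receptors, was at 127 to 143 CPM with void and 106 to 124 with DHT, without overlap. The log2 fold change came to -0.26 (SE 0.06, adjusted p = 0.0245, edgeR), and no gene of the list passed when any 1 of void mice 10, 11 and 4 or DHT mice 1, 3 and 5 was left out. The choroid plexus covariate, whose score separates the groups and cannot be told apart from treatment, also ended the calls of Shisa9, Gsg1l and Akap5. So did scaling on neuron markers, with edgeR adjusted p values of 0.154, 0.050 and 0.304, while Abhd12 of the auxiliary list (0.22, adjusted p = 0.0365) and Stx4a (0.30, adjusted p = 0.0303) passed on that scale as higher. In DESeq2, Akap5, Dlg2 and Myo5a of the 30 passed, all lower. Stx4a, a vesicle fusion gene named, like Abhd12, Dlg2 and Myo5a, after its values were seen, was the other gene of the list without overlap, averaging 30.1 ± 1.58 CPM in void and 34.02 ± 1.79 CPM in DHT mice (± SD of 5 mice, adjusted p = 0.124, edgeR). Adarb1, which encodes the enzyme that edits the Gria2 codon shown above, was at 246 ± 14.7 and 228 ± 15.7 CPM (± SD of 5 mice, adjusted p = 0.434), and it too was named after its values were seen.

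For comparison, 0 of the 11 tested NMDA and kainate receptor subunits passed in edgeR, 2 had an unadjusted p under 0.05 (Grik3 and Grin3a) and 1 passed in DESeq2 (Grin3a, adjusted p = 0.0147). Their median was -0.13, with 8 of 11 negative. The largest difference was that of the kainate receptor subunit Grik3, with or -0.28 as a log2 fold change (SE 0.12, adjusted p = 0.245). Grin3a, an NMDA receptor subunit named after its values were seen, was at 75.1 to 86.2 CPM (median 79.5) in void and 52.4 to 70.8 (median 69.98) in DHT mice, without overlap, at -0.26 on the log2 scale (SE 0.08, edgeR adjusted p = 0.0922). The test of a difference between AMPA and other glutamate receptor subunits was not run.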

How the data were processed

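The authors deposited raw counts per gene for 10 hippocampal libraries, 1 per mouse, without normalization. Per the study's methods, reads were trimmed and filtered with HTStream and aligned with STAR (2.7.10b in the submitters' processing notes) to mm10, while those notes name mm39. The annotation release and the handling of strand and of reads with several matches were not given in the sources used here, and no coordinates are printed. Names, lengths, GC content and reference sequences came from GENCODE M21, which gave a symbol to 51948 of 56884 genes. Coding sequences were compared because no protein table was at hand.

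Each mouse was placed in a group by its label. The main test was that of edgeR 4.0.16 under R 4.3.3 (TMM, expression filter by group, quasi-likelihood test without covariates, Benjamini-Hochberg adjustment over 17622 genes). The limit on log2 fold change, 1, is that of the study. DESeq2 1.42.0 was the alternative count model. Per-mouse log2 values used a prior count of 2, and permutation tests were exact and two-sided. Scripts were tested on simulated data. Libraries had 27188854 or more counts, but counting error depends on the counts of each gene. Its part in the spread between mice was not measured.

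The members and gene lists were chosen with earlier results of these data known. Named were all members, the gene closest to each in covariation, and in each list the genes that passed or else the one with the largest difference. Alternatives were other normalizations, filters, a choroid plexus covariate and leaving out each mouse. Offsets for GC content and length, and coding length in place of transcript length, were added after seeing the data. The result for 1 marker gene is not reported here.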

Additional observations from a re-analysis of the deposited data

Results flagged for a closer look

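In 20 groups of 5 mice (10 genes in 2 treatments), the highest and the lowest CPM were compared with the rest of their group. Only Gria1 in void mice stood out: mouse 5, at 1074 CPM, was separated from the next, at 1258, by 0.789 of the group's range, above the limit of 0.71 for 5 samples. Chance alone marks about 1 of 20 groups. The same mouse had the highest Gria4 and the lowest Cacng8 of the void mice. Its part in the differences was measured by leaving it out, which took the log2 fold change of Gria1 to -0.10 and that of Gria4 to -0.19.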

How the results depend on the processing

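No paired analysis was run, since the labels give neither pairs nor litters. The paper states that littermates were randomized to treatment, and an effect of litter was not tested. The number of the 10 genes that passed was 0 in 17 of 18 other fits, 2 with DESeq2, and 4 with an unadjusted p. Genes of the whole table that fell (46) numbered 266 with DESeq2, 234 with GC and length offsets, 6 when scaled on neuron markers, 0 with the choroid plexus covariate and 743 with an unadjusted p, and those that rose (920) numbered 1702, 0 and 2316 under the last 3. With 1 mouse left out, 351 to 1072 rose, 5 to 77 fell and 0 of the 10 genes passed. The most calls were lost without void mouse 11 (351 and 5), and also without void mice 10 (552 and 11) and 4 (493 and 9) and DHT mice 1 (395 and 13) and 3 (518 and 20). Scaled on neuron markers, Gria1 was at 0.063, Cacng7 at 0.11, and the medians of all genes at 0.13, of type I TARPs at 0.043, of auxiliary proteins at 0.085 and of scaffolds at 0.028. With the choroid plexus covariate, Cacng3 was at 0.038, Cacng8 at -0.10, Cacng5 at -0.12 and Cacng7 at 0.17, and with GC and length offsets Cacng8 was at -0.030. Cacng7 was at 0.0044 by library size and 0.00033 with at least 10 counts in every library. The median of all genes was -0.018 with DESeq2, -0.0177 with its size factors, -0.00099 without a filter and -0.0087 with GC and length offsets. Without 1 mouse, log2 fold changes ranged from -0.039 to 0.10 for Cacng4, -0.059 to 0.19 for Cacng8, 0.11 to 0.49 for Cacng5, -0.12 to 0.049 for Cacng7, and medians from -0.095 to 0.021 for auxiliary proteins and -0.033 to 0.017 for all genes. The cause of these shifts was not tested. Of 437 comparisons of gene counts, single genes, lists and shares with their main value, 361 were classed as unchanged and 31 changed sign. This tally leaves out the numbers of genes of the whole table that rose or fell. It also leaves out the number of the 10 genes that passed. For a single gene, unchanged meant the same sign and side of the threshold, however much its size moved. For gene counts it meant a similar number, and for shares a shift below the SD of void mice. For list medians it meant the same sign and a shift below the median SE of the list, or below a fixed limit over all genes.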
